A study of Mus musculus with 12 samples.

Results

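The cytosolic ribosomal protein genes of the mouse were described in 12 RNA-seq libraries of whole lung. They were found in the deposited gene table by symbol: rows typed as protein coding whose name is Rpl or Rps followed by a number, an "a" or a stalk letter, with at most 1 closing letter. This gave 80 genes of the 38349 in the table, 48 of the large subunit and 32 of the small subunit. The table lists several transcript types for most rows, and a row was kept where protein coding was 1 of them. Only 10 genes have it as their single type. A further 2 matching symbols, Rpl6l and Rpl32l, are not typed as protein coding and were left out.

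All mice were wild type, and the groups hold 3 libraries each. Control lungs were uninjured. ALI lungs had acute lung injury from hypoxia and LPS, a component of the bacterial cell wall. MSC and tpMSC lungs had the same injury and were treated with MSC or tpMSC, and how these preparations differ is not given in the sources used here, nor are dose, time, strain, sex or age. The labels leave unsaid whether the 3 libraries of a group are 3 animals, so the p-values below measure the spread between these libraries, which may be technical.

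Each cytosolic ribosome joins a small (40S) subunit, which reads the mRNA, to a large (60S) subunit, which forms the peptide bond and carries the stalk that recruits translation factors. Ribosomal protein genes are among the most highly transcribed genes of every cell. Their mRNAs classically begin with a cytosine followed by a run of pyrimidines, the 5′ terminal oligopyrimidine (TOP) tract, through which mTORC1 signalling and the binding protein Larp1 control their translation and stability. That control acts largely on translation, which RNA-seq of total mRNA does not measure.

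The stretch around the annotated start is shown first, since it is where a TOP tract would lie, for the 7 members called higher in ALI in every alternative setting and for Rps6, the substrate of the kinases downstream of mTORC1. RefSeq start sites (GRCm38.p6) were available for 59 of the 80 members. Each line runs from 10 bases before the annotated start through the first 20 bases from it, 5′ to 3′ on the gene's strand. Capitals mark the longest run of a C followed by at least 4 more C or T that begins within 10 bases of the start.
Rps12 (chr10:23787190-23787219, minus strand): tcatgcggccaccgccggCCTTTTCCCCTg
Rps2 (chr17:24720053-24720082, plus strand): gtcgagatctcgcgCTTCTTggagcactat
Rpl12 (chr2:32961702-32961731, plus strand): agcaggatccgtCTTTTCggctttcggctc
Rps26 (chr10:128626487-128626516, minus strand): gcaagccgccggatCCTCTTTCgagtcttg
Rpl6 (chr5:121204491-121204520, plus strand): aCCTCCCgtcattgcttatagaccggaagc
Rps6 (chr4:86857348-86857377, minus strand): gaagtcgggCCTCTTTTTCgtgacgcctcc
Rplp0 (chr5:115559457-115559486, plus strand): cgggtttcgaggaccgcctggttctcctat
Rpsa (chr9:120127756-120127785, plus strand): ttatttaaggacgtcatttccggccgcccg

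Of these 8 windows, those of Rplp0 and Rpsa hold no such run that begins within 10 bases of the start. A tract lay within 10 bases of an annotated start in 37 of the 59 members (62.7%), and in 34.4% of the 27025 genes with a RefSeq start. The start base itself was a C followed by at least 4 more C or T in 13 members (22%) and in 3.01% of all genes, also where the run had begun before the start. From 250 bases before to 50 bases after the start, the letters CCGGAAG, searched on both strands, occurred in 25 members (42.4%) and in 9.93% of all genes. The letters AAGATGG, also searched on both strands, occurred in 9 members (15.3%) and in 7.28%. The tract was present in 9 of the 13 that were called higher in ALI and have a RefSeq start, and in 28 of the 46 others. These are letter matches, chosen as motifs after the sequences had been seen, and which start lung transcripts used was not measured.

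The 80 genes took 1.82 to 2.09% of the counts in Control libraries, 1.96 to 2.15% in ALI, 1.83 to 2.15% in MSC and 1.72 to 2.06% in tpMSC. The groups overlapped, with means of 1.98% ± 0.14 in Control, 2.085% ± 0.11 in ALI, 1.94% ± 0.18 in MSC and 1.93% ± 0.19 in tpMSC (SD, n = 3 each). The total share of ribosomal protein mRNA thus differed between groups by no more than the libraries of a group did.

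Library totals ran from 53083002 to 70209229 counts. The lung markers were present in every library: the summed level of 8 genes of lung epithelium was 29300 to 36600 FPKM (fragments per kilobase of gene model, scaled to library depth) in Control, 13100 to 16100 in ALI, 20000 to 26200 in MSC and 23200 to 33300 in tpMSC. Markers of several cell types changed with the injury. All 16 neutrophil markers were higher in ALI, with a summed level of 245 to 318 FPKM in Control, 5900 to 6780 in ALI, 1160 to 1790 in MSC and 890 to 1050 in tpMSC. All 12 markers of cycling cells were also higher in ALI, at 13.4 to 16.8 FPKM in Control, 40.1 to 60.3 in ALI, 39.7 to 67 in MSC and 33.9 to 52.3 in tpMSC. Of 12 endothelial markers 11 were lower in ALI (1120 to 1150 FPKM in Control, 529 to 597 in ALI, 648 to 837 in MSC and 840 to 929 in tpMSC). Of the other lists, 9 of 12 alveolar macrophage markers were lower in ALI (378 to 465 FPKM in Control, 79.4 to 91.3 in ALI, 67.1 to 850 in MSC and 460 to 686 in tpMSC), as were 9 of 10 erythroid markers, with none higher. Of 10 alveolar type 1 markers 9 were lower and 1 higher (2300 to 2360 FPKM in Control, 1350 to 1650 in ALI, 1690 to 2000 in MSC and 1870 to 2120 in tpMSC). No marker of these 7 lists was at 0 in a whole group. Because these are bulk samples, a change in the number of cells of a type and a change in RNA per cell cannot be told apart, and the part of cell content in the results below was not tested.

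The members shifted together from library to library. In MSC replicate 2, 77 of the 79 members that passed the filter on low counts lay above their group mean, by a median of 0.16 on the log2 scale, and 70 were the highest of the group. Against this, Control replicate 1 lay at -0.11, ALI replicate 3 at -0.12, MSC replicate 1 at -0.10 and tpMSC replicate 3 at -0.13. In MSC replicate 2 the shift was 0.08 for 2585 other genes at 10 FPKM or more and 0.12 for mitochondrial ribosomal protein genes. The 2585 were capped at a length of 3.91 kb and not matched in length to the members (median 1.94 kb). That library also had the highest summed level of alveolar macrophage markers of its group (850 FPKM, against 329 and 67.1) and of cycling cell markers (67 FPKM, against 43.4 and 39.7). The part of either in the shift was not tested.

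**Figure D1:**
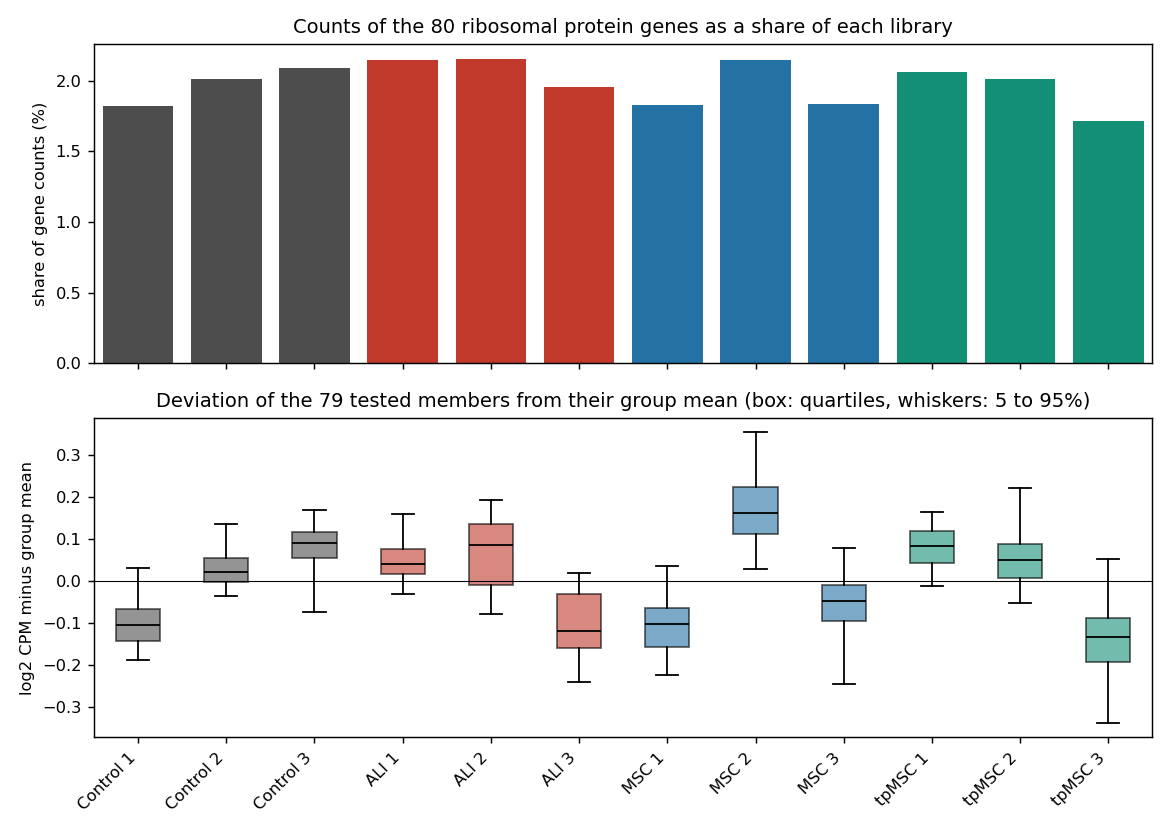
Top: counts of the 80 genes as a percentage of all gene counts in each of the 12 libraries. Bottom: log2 CPM (counts scaled to library depth) of the 79 tested members minus their group mean, with boxes at the quartiles, a line at the median and whiskers from 5 to 95%. Shares lie between 1.72 and 2.15% with overlapping groups, and MSC replicate 2 is shifted up by a median of 0.16 while ALI replicate 3 and tpMSC replicate 3 are shifted down.

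The deposited levels differed widely between members. The median of the group-averaged level was 99.9 FPKM over the 80 members, and 71 of them lay at 10 FPKM or more. Rplp1, 1 of the acidic proteins of the stalk, was the highest at a mean of 765 FPKM over the 12 libraries, followed by Rps15 of the 40S subunit at 461 and Rps4x, the X-linked 40S protein, at 390. The deposited FPKM values imply a median gene length of 1.94 kb for the members, and what that length covers is not stated, so levels of different members are comparable only as far as these lengths match their mRNAs. At the bottom were Rpl39l, a paralogue known from testis, at 0.06 FPKM and Rpl3l, a paralogue known from heart and skeletal muscle, at 0.154 FPKM. Rpl39l was the 1 member that did not pass the filter, with 47 counts in all 12 libraries together. Mean levels were also low for Rpl21 (1.41 FPKM), Rpl35a (5.16), Rps18 (8.7) and Rps2 (12.5). Rows named as their pseudogenes took 92.7%, 82.2%, 79% and 93.7% of the counts of these families, as described below. How reads were divided between such rows is not known, so these levels cannot be compared with those of other members.

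The first question was what injury did to these genes. Of the 79 members tested, 16 were higher in ALI than in Control and none was lower. Across all 22915 genes tested, 20.2% were called higher and 19.6% lower, so the share of members called higher (20.3%) was near that of all genes, and the share called lower was 0. At an unadjusted p under 0.05, edgeR gave 21 higher and 2 lower. DESeq2 called 17 members higher and 0 lower, beside 18.8% higher and 18.8% lower of all genes it tested. The edgeR count of members higher was 8 without Control replicate 1, 9 without ALI replicate 1 and 10 without Control replicate 2. In these fits 15.9%, 16.3% and 16.2% of all genes tested were called higher. Among genes at 10 FPKM or more, 15 of 71 members (21.1%) were called higher and 0 lower, beside 34% and 22.6% of 5122 other genes. The changes were small: 72 of the 79 lay within 0.5 of 0 on the log2 scale, with a median of 0.13, beside -0.02 over all genes tested. The 2 subunits had like medians, 0.13 each, with 11 of 47 large-subunit and 5 of 32 small-subunit members called higher. In 24 members (30.4%) the lowest ALI library lay above the highest Control library in scaled CPM, beside 27.5% of all genes tested. In 3 (3.8%) all ALI libraries lay below Control, beside 28.5%.

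**Figure D2:**
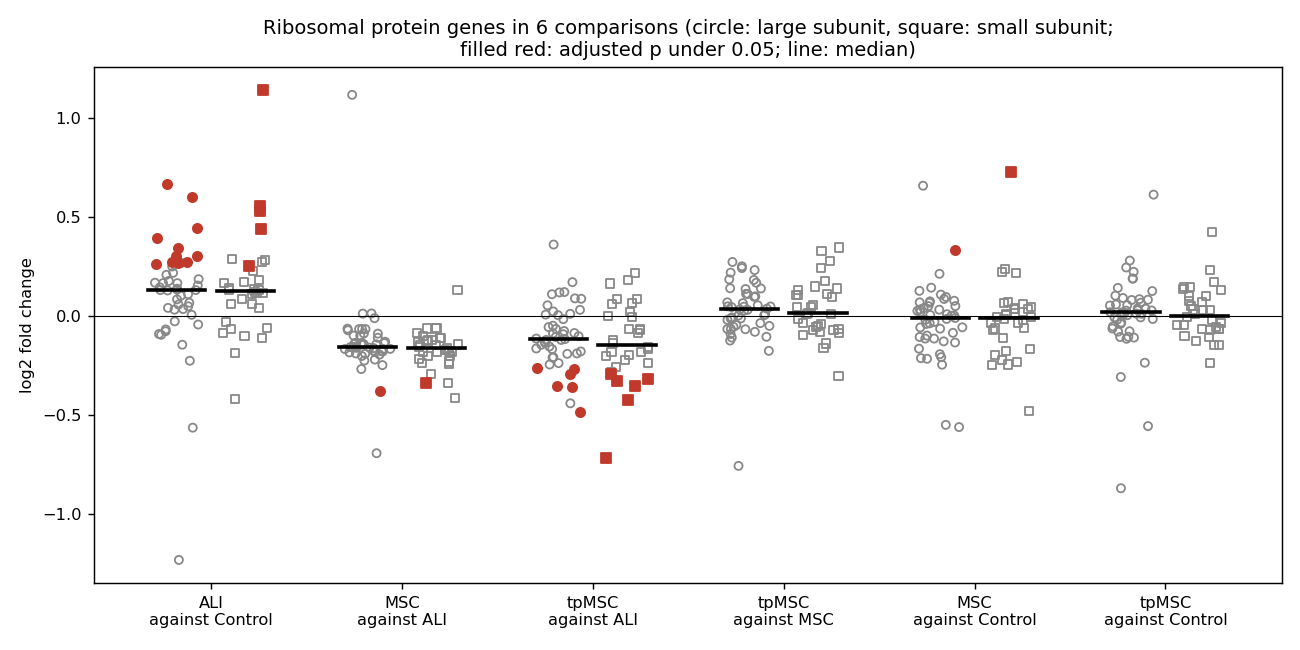
Log2 fold change (vertical axis) of each of the 79 tested members in 6 comparisons, with circles for the large subunit, squares for the small subunit, filled red where the Benjamini-Hochberg adjusted p was under 0.05 and a black line at the median. In ALI against Control 16 members are filled, all above 0; in MSC and tpMSC against ALI 2 and 12 are filled, all below 0; in tpMSC against MSC none is.

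The stalk of the 60S subunit split into a scaffold that rose and acidic proteins that did not pass the test. Rplp0, the scaffold that anchors the stalk (ENSMUSG00000067274, chromosome 5, 115559467 to 115563727, GRCm38), stood at 169.6, 187.7 and 202.3 FPKM in Control, 290.7, 249.9 and 274.3 in ALI, 213.1, 276.1 and 211.7 in MSC, and 220.3, 216.2 and 210.9 in tpMSC. Every ALI library was above every Control library, and all treated libraries lay above Control too. Rplp0 rose in ALI by 0.60 ± 0.11 (log2 fold change ± SE, adjusted p = 0.000892). Rplp1 averaged 783 FPKM in Control (SD 89.4) and 796 in ALI (SD 70.7), and this difference missed the threshold (0.09 ± 0.13, adjusted p = 0.64). Rplp2, the partner of Rplp1 in the stalk dimers, stood at 40.9 ± 3.24 FPKM in Control and 43 ± 3.51 in ALI (log2 fold change 0.13 ± 0.13, adjusted p = 0.452). The ratio of scaffold to acidic proteins was not itself tested. Rpl12, which sits at the base of the stalk (ENSMUSG00000038900, chromosome 2, 32961559 to 32965345), stood at 63.1, 65 and 70.4 FPKM in Control, 91.7, 88.5 and 79.1 in ALI, 64.1, 73.3 and 69.2 in MSC, and 68.6, 62.7 and 57.3 in tpMSC. The ALI libraries lay above all 9 others. Rpl12 rose by 0.45 ± 0.09 (adjusted p = 0.00154).

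The other large-subunit members that rose did so by less, except Rpl29. Rpl6 (ENSMUSG00000029614, chromosome 5, 121204481 to 121209241) stood at 100.5, 103 and 113 FPKM in Control, 135.2, 135.5 and 128 in ALI, 112.9, 137 and 114 in MSC, and 108.6, 105.6 and 102.9 in tpMSC. It rose by 0.39 ± 0.08 (adjusted p = 0.00261), with no overlap between ALI and Control. Rpl41, a very short basic peptide, rose by 0.345 ± 0.10 (adjusted p = 0.0147). Rpl10a, the protein of the mobile L1 stalk near the exit site, rose by 0.31 ± 0.08 (adjusted p = 0.0106). Rpl3, which reaches toward the peptidyl transferase centre, rose by 0.30 ± 0.08 (adjusted p = 0.0129), and its muscle paralogue Rpl3l stood at 0.177 ± 0.080 FPKM in Control and 0.190 ± 0.062 in ALI (adjusted p = 0.862). Rpl15 rose by 0.275 (adjusted p = 0.021) and Rpl4, which lines the peptide exit tunnel, by 0.27 (adjusted p = 0.0167). Rpl32 and Rpl19 rose by 0.27 each and were close to the threshold (adjusted p = 0.0443 and 0.048). Rpl29 (ENSMUSG00000048758, chromosome 9, 106429454 to 106431568) stood at 6.48, 2.91 and 3.95 FPKM in Control, 7.55, 6.65 and 6.12 in ALI, 7.08, 7.58 and 6.23 in MSC, and 5.67, 7.64 and 6.57 in tpMSC. Control replicate 1 lay within the ALI range, and the call (log2 fold change 0.67 ± 0.24, adjusted p = 0.0456) was lost in 15 of 21 alternative settings, with the adjusted p reaching 0.157. The calls of Rpl19 and Rpl32 were lost in 13 and 11 of the 21, those of Rpl15 and Rpl4 in 6 each, that of Rpl41 in 3, that of Rpl3 in 2 and that of Rpl10a in 1. Without Control replicate 1 none of these last 5 passed the threshold.

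Among small-subunit members, Rps2 changed most. Rps2, at the side where mRNA enters the 40S subunit (ENSMUSG00000044533, chromosome 17, 24718116 to 24721929), stood at 7.71, 8.62 and 8.32 FPKM in Control, 16.25, 20.24 and 15.69 in ALI, 11.62, 17.89 and 11.03 in MSC, and 11.01, 9.87 and 11.44 in tpMSC. All libraries of injured lungs lay above Control, and MSC replicate 2 lay within the ALI range while the other treated libraries lay below it. Rps2 rose in ALI 2.21-fold (log2 fold change 1.14 ± 0.17 SE, adjusted p = 0.000273). Most of the reads of its family are counted at pseudogenes, as described below. Rps12, in the beak of the 40S subunit (ENSMUSG00000061983, chromosome 10, 23785183 to 23787275), stood at 68.7, 76.9 and 74.9 FPKM in Control, 97.9, 103.2 and 109.95 in ALI, 79.55, 93 and 82.2 in MSC, and 90.3, 84.1 and 78.3 in tpMSC. The ALI libraries lay above all others, and the treated libraries all lay above Control. It rose by 0.56 ± 0.08 (adjusted p = 0.000266). Rpsa, which is also known as a laminin receptor at the cell surface (ENSMUSG00000032518, chromosome 9, 120127689 to 120132369), stood at 165, 182 and 196.6 FPKM in Control, 260.7, 246.5 and 245.9 in ALI, 200.2, 247.2 and 189.7 in MSC, and 212.3, 191.4 and 195.4 in tpMSC. It rose by 0.53 ± 0.10 (adjusted p = 0.00135).

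Rps26, at the mRNA exit channel (ENSMUSG00000025362, chromosome 10, 128624534 to 128626747), stood at 102.7, 110.2 and 99.8 FPKM in Control, 143, 132 and 131.5 in ALI, 114.75, 135.9 and 111.8 in MSC, and 116.9, 116.9 and 103.9 in tpMSC. ALI and Control did not overlap. It rose by 0.44 ± 0.09 (adjusted p = 0.0016). Rps6, the substrate of the S6 kinases, stood at 277 ± 18.7 FPKM in Control and 317 ± 9.78 in ALI and rose by 0.25 ± 0.08 (adjusted p = 0.0238), a call lost in 6 of 21 alternatives. Rps18, in the head of the subunit, stood at 8.73 ± 0.849 and 10.1 ± 0.686 FPKM and just missed the threshold (log2 fold change 0.27 ± 0.10, adjusted p = 0.0502).

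**Figure D3:**
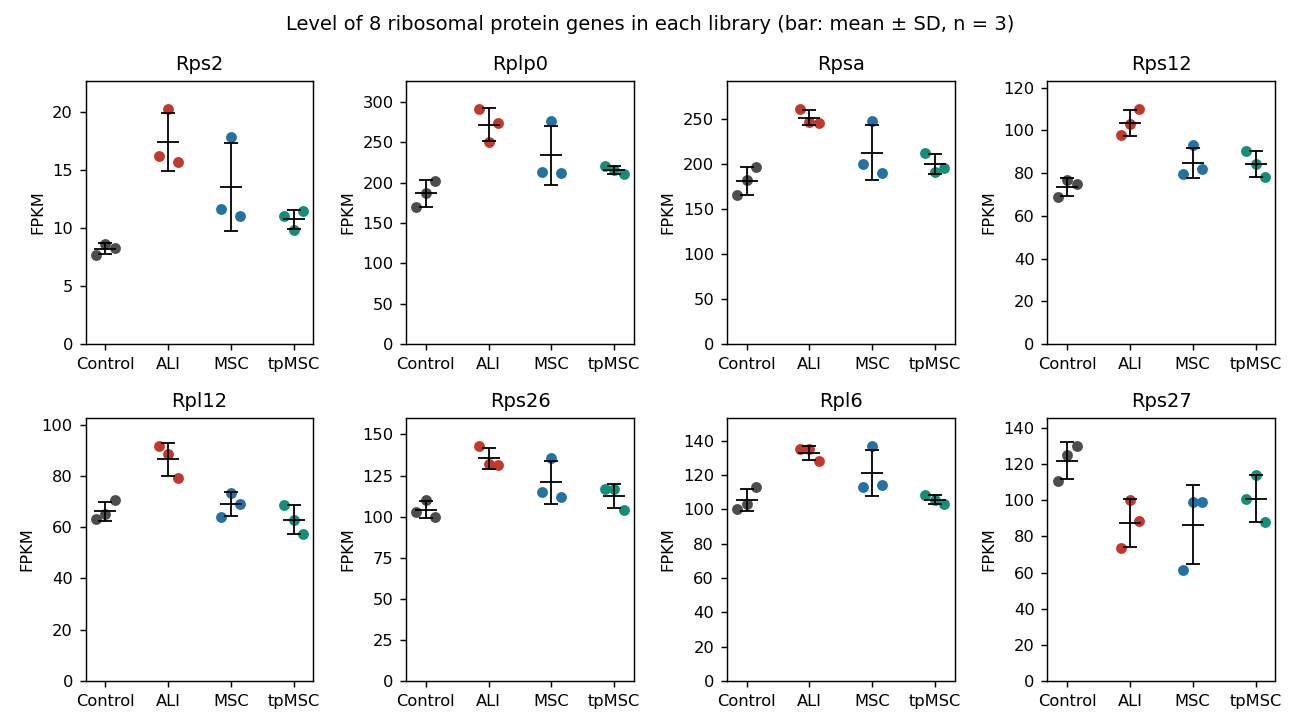
FPKM (vertical axis) of 8 members in each library, with points for the 12 libraries coloured by group and bars at the mean ± SD (n = 3). For Rps2, Rplp0, Rpsa, Rps12, Rpl12, Rps26 and Rpl6 the 3 ALI points lie above the 3 Control points, and the high MSC point in most panels is replicate 2; for Rps27 the ALI points lie below Control.

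No member was called lower in ALI, and the members with the lowest fold changes were of different kinds. Rps27, a zinc finger protein of the 40S subunit (ENSMUSG00000090733, chromosome 3, 90212522 to 90213651), stood at 110.5, 125.2 and 130.1 FPKM in Control, 73.8, 100.2 and 88.4 in ALI, 61.6, 99 and 99.3 in MSC, and 101, 114 and 88.1 in tpMSC. The ALI libraries all lay below Control (log2 fold change -0.42 ± 0.18, adjusted p = 0.0839). It was singled out after its values were seen. It was called lower when only these 2 groups were fitted (adjusted p = 0.0186), with a replicate block (adjusted p = 0.0303) and without MSC replicate 1 (adjusted p = 0.0207), and over the other alternatives the adjusted p reached 0.266. Its retrocopy Rps27rt, outside the symbol rule, stood at 84.9 ± 11.5 FPKM in Control and 98.1 ± 47.6 in ALI, and how reads were divided between them is not known. Its paralogue Rps27l, a p53 target, stood at 37.2 ± 3.04 FPKM in Control and 37.2 ± 6.07 in ALI (adjusted p = 0.751).

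The remaining paralogues and their parents, and Rps15, were called in no comparison. Rps4l stood at 8.62 ± 2.5 FPKM in Control, 7.72 ± 0.747 in ALI, 8.77 ± 2.59 in MSC and 8.21 ± 0.567 in tpMSC. GENCODE M21 types Rps4l as a transcribed processed pseudogene. It overlaps Tmtc1 on the opposite strand, and the strand setting of the counting is not given in the sources used here, so its reads cannot be told apart from those of Tmtc1. Its parent Rps4x stood at 391 ± 20.2 FPKM in Control and 407 ± 24.9 in ALI (log2 fold change 0.12 ± 0.09, adjusted p = 0.306). Rpl10, a protein that joins the 60S subunit late in its assembly, stood at 249 ± 12.7 and 263 ± 9.8 FPKM (log2 fold change 0.14 ± 0.08, adjusted p = 0.173). Rpl39 stood at 52.9 ± 6.49 and 61.1 ± 8.38 FPKM (log2 fold change 0.27 ± 0.15, adjusted p = 0.166), and Rpl39l was listed at 0 in 2 of 3 ALI libraries and 1 of 3 Control libraries. Rps15 stood at 495 ± 46.8 and 453 ± 9.06 FPKM (log2 fold change -0.07 ± 0.08, adjusted p = 0.536).

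Pseudogenes shape what can be said of several members. Ribosomal protein mRNAs have left many processed copies in the mouse genome, and the table holds 241 rows named as pseudogenes of 58 members. These rows took 9.43% of the counts of all members and these rows together. Copies under other names, such as Rps27rt, were not counted. They took 93.7% of the family's counts for Rps2, 92.7% for Rpl21, 82.2% for Rpl35a, 79% for Rps18 and 63.3% for Rpl17, and over 10% in 19 families. For the leading pseudogene of each of these 19 families, 98 to 100% of the aligned coding bases were identical to the gene, with identical runs of 177 to 728 bases, longer than the 150-base reads. The following stretch of Rpl7a (chr2:26910764-26913318, plus strand, GRCm38) and its pseudogene (chrX:166854211-166855011, plus strand) shows how little separates the 2 rows. It covers coding bases 156 to 215, and capitals mark the 1 base that differs in it.
Rpl7a: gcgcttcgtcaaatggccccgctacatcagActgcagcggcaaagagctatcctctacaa
Rpl7a-ps11: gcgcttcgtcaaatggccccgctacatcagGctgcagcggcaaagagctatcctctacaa

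For Rpl7a the division of reads between these rows differed from library to library. Over the whole coding sequence 799 of 801 bases are identical. The pseudogene rows took 16.3 to 72.6% of the family's counts, depending on the library. Within groups, the SD of log2 CPM was 0.79 for the Rpl7a row and 0.28 for the sum of gene and pseudogenes. Rpl17 showed the same: its pseudogenes took 40.7 to 83% of the counts, and the SD went from 0.67 to 0.11 on summing. The Rpl17 row itself stood at 72.3, 142.7 and 147.2 FPKM in Control, 57.9, 46.1 and 44 in ALI, 115.5, 160 and 57.1 in MSC, and 39.7, 115.95 and 37.5 in tpMSC. It was lower in every ALI library than in Control (log2 fold change -1.23 ± 0.46, adjusted p = 0.0525), but the sum of gene and pseudogenes gave 0.11 ± 0.09 (adjusted p = 0.397). The fall of this row, which was called in 8 of 21 alternatives, was not seen in its sum with the rows named as its pseudogenes.

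The rise of Rps2 was seen in gene and pseudogene rows alike. The gene's row held 15.4, 17.2 and 16.5 CPM in Control and 33.5, 42.3 and 32.5 in ALI. Its 10 pseudogene rows together held 244, 273 and 288 CPM in Control and 521, 422 and 492 in ALI. Summed, the family rose in ALI by 0.855 ± 0.13 (adjusted p = 0.000265). For Rps12, whose leading pseudogene by name (Rps12-ps3, typed as protein coding in GENCODE M21) is identical to the gene over all 387 aligned coding bases, the sum rose by 0.44 ± 0.09 (adjusted p = 0.00272). Summing was added after the data had been seen. It left the number of members called higher in ALI at 16, with the call of Rpl29 lost (adjusted p = 0.0507) and that of Rps18 gained (adjusted p = 0.0456).

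**Figure D4:**
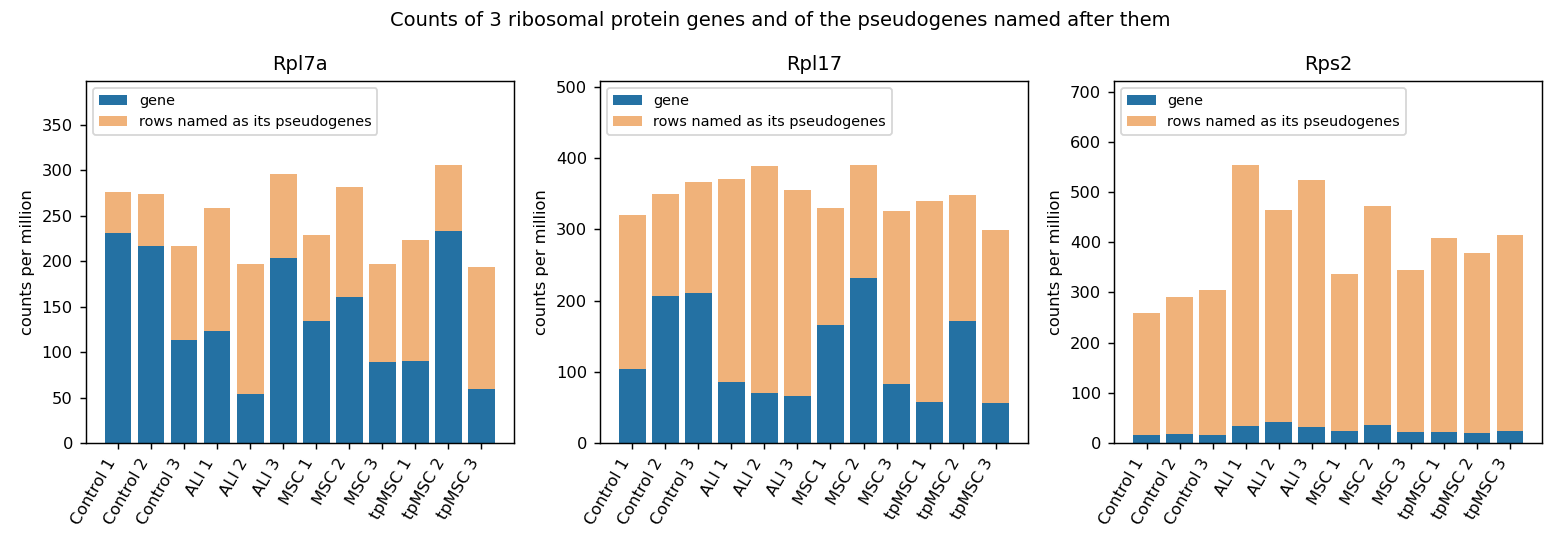
CPM (counts scaled to library depth, vertical axis) in each of the 12 libraries for 3 members (blue) with the rows named as their pseudogenes stacked on top (orange). For Rpl7a and Rpl17 the blue part varies between libraries of a group far more than the whole bar; for Rps2 both parts are higher in the 3 ALI libraries than in the 3 Control libraries.

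The next question was how MSC and tpMSC lungs differed from untreated injured lungs. All these comparisons use the ALI libraries, as does ALI against Control, so they are not independent of each other. In MSC against ALI, Rpl12 and Rps12 fell and no member rose, where 5.21% of all genes tested were called lower and 5.03% higher. Among genes at 10 FPKM or more, 2 of 71 members (2.82%) were called lower and 0 higher, beside 11.2% and 7.28% of 5122 other genes. Rpl12 fell by 0.38 (log2 scale; SE 0.09, adjusted p = 0.018) and Rps12 by 0.34 (SE 0.08, adjusted p = 0.0251). The median over members was -0.155 (beside 0.02 over all genes), with 75 of 79 fitted below 0. At an unadjusted p under 0.05 there were 11 lower and 1 higher. DESeq2 called 3 members lower and 0 higher, beside 7.76% and 8.82% of all genes it tested. In 9 members (11.4%) all MSC libraries lay below ALI in scaled CPM, beside 13.4% of all genes, and in 0 above, beside 13.6%.

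This count varied with the libraries included. Without MSC replicate 2, 14 members were called lower in MSC than in ALI, where 6.27% of all genes tested were. Without ALI replicate 2, or MSC replicate 1, it was 0, and without ALI replicate 1 or 3 it was 1. In these fits, in the order given, 3.99%, 2.41%, 2.7% and 2.85% of all genes tested were called lower. Of the 2 members called, Rpl12 lost its call in 4 of 21 alternatives (adjusted p up to 0.0895). These were without ALI replicate 1, ALI replicate 2 or MSC replicate 1, and with only the 2 groups fitted. Rps12 lost it without ALI replicate 2 or 3 or MSC replicate 1 or 3, and when its pseudogenes were added (adjusted p = 0.134). Rps12 also lost it without the filter on low counts, with only the 2 groups fitted and with limma on log2(FPKM + 0.1). That made 8 of 21 alternatives. Neutrophil markers were lower in MSC than in ALI in 15 of 16, and plasma cell markers summed to 6600 FPKM in MSC replicate 3, against 519 and 713 in the other MSC libraries. The part of either in these results was not tested.

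In tpMSC against ALI, 12 members were called lower (15.2%) and none higher, where 11.5% of all genes tested were called lower and 11.6% higher. Among genes at 10 FPKM or more, 11 of 71 members (15.5%) were called lower and 0 higher, beside 19.3% and 17% of 5122 other genes. Rps2 fell by 0.72 (log2 scale; SE 0.17, adjusted p = 0.0101), Rpl12 by 0.48 (SE 0.09, adjusted p = 0.00214) and Rps18 by 0.42 (SE 0.10, adjusted p = 0.0117). Rps18 stood at 10.9, 9.85 and 9.61 FPKM in ALI and 7.73, 7.02 and 8.3 in tpMSC, without overlap. Rplp0 and Rpsa fell by 0.36 each (adjusted p = 0.032 and 0.0246), as did Rpl6 (adjusted p = 0.00951), and Rps12 by 0.33 (adjusted p = 0.0149). Rps7, needed for the maturation of 18S rRNA, stood at 157, 175.05 and 136 FPKM in ALI and 143.1, 126.7 and 113.4 in tpMSC and fell by 0.315 (SE 0.10, adjusted p = 0.0477), with overlapping groups. The other 4 were Rpl3, Rps26, Rpl4 and Rpl10a, with falls of 0.26 to 0.29.

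The median over members was -0.12 in this comparison, beside 0.01 over all genes, and 57 of 79 were fitted below 0. In 19 members (24.1%) all tpMSC libraries lay below ALI, beside 20.3% of all genes, and in 0 above, beside 20.1%. At an unadjusted p under 0.05 there were 18 lower and 0 higher. DESeq2 called 15 members lower and 0 higher, beside 12% and 12.5% of all genes it tested. Leaving out 1 library gave 4 members lower without ALI replicate 1, tpMSC replicate 2 or tpMSC replicate 3, 6 without ALI replicate 2 or tpMSC replicate 1 and 7 without ALI replicate 3. In these fits, in the order given, 7.76%, 7.13%, 11.8%, 8.8%, 7.2% and 8.01% of all genes tested were called lower. Rpl12 and Rpl6 were called in all 21 alternatives. The call of Rps7 was lost in 15 (adjusted p up to 0.191), those of Rpl10a and Rpl4 in 10 each, Rplp0 in 9, Rps26 in 7, Rpl3 and Rpsa in 6 each, Rps12 in 3, Rps18 in 2 and Rps2 in 1. B cell markers were also lower in tpMSC than in ALI, in 10 of 12, with a summed level of 30.7 to 43.3 FPKM in tpMSC and 101 to 137 in ALI, as were all 16 neutrophil markers. The part of either in these falls was not tested. With pseudogenes added, Rps2 missed the threshold (log2 fold change -0.37 ± 0.13, adjusted p = 0.0519), as did Rps12 (adjusted p = 0.0544), and Rps15a was called lower (adjusted p = 0.0433), which gave 11 members.

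tpMSC and MSC lungs gave no member called in either direction, where 0.0175% of all genes tested were called higher in tpMSC and 0.0131% lower. At an unadjusted p under 0.05 there were 2 members higher and 0 lower, and DESeq2 and limma called none. Of all genes it tested, DESeq2 called 1.02% higher and 2.06% lower. Fold changes ran from -0.76 to 0.35 on the log2 scale with a median of 0.03 and a median SE of 0.10. In 2 members (2.53%) all tpMSC libraries lay above MSC, beside 7.16% of all genes, and in 1 (1.27%) all lay below, beside 7.05%. The comparison did not show that the treatments leave these genes alike: for Rps2 the difference was -0.30 ± 0.17 and for Rplp0 -0.09 ± 0.11 (log2 fold change ± SE, adjusted p = 0.498 and 0.801). With pseudogenes added, Rps2 gave 0.05 ± 0.13.

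Against Control, Rps2 and Rplp0 were higher in MSC, by 0.73 ± 0.17 (adjusted p = 0.0122) and 0.34 ± 0.11 (adjusted p = 0.0476), where 10.7% of all genes tested were called higher. No member was called lower, where 8% were. In 5 members (6.33%) all MSC libraries lay above Control in scaled CPM, beside 19.2% of all genes, and in 4 (5.06%) below, beside 19.4%. At an unadjusted p under 0.05 there were 7 higher and 3 lower. DESeq2 called 3 members higher and 1 lower, beside 13.8% and 10.9% of all genes it tested. Rps2 lost its call without Control replicate 1 (adjusted p = 0.0543), and Rplp0 lost its call in 14 of 21 alternatives, among them without MSC replicate 2. In tpMSC against Control no member was called, where 9.1% of all genes were called higher and 6.79% lower, with 5 members higher and 1 lower at an unadjusted p under 0.05. DESeq2 called 1 member higher and 0 lower, beside 12.1% and 9.67% of all genes it tested. In 7 members (8.86%) all tpMSC libraries lay above Control, beside 19.9% of all genes, and in 1 (1.27%) below, beside 19.4%. Rps2 stood at 10.8 ± 0.811 FPKM in tpMSC and 8.22 ± 0.464 in Control without overlap (log2 fold change 0.43 ± 0.17, adjusted p = 0.111). With pseudogenes added this call was made (adjusted p = 0.0248).

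Among the genes that build and use ribosomes, the nucleolar assembly factors had the highest share of rises in ALI of the 11 lists outside the cell markers (71.7%). Of 60 such genes 43 rose and 2 fell (3.33%), beside 20.2% and 19.6% of all genes tested, with a median log2 fold change of 0.43. Nop58, a core protein of the box C/D particles that methylate rRNA, stood at 3.24 ± 0.212 FPKM in Control, 6.5 ± 0.0929 in ALI, 4.29 ± 0.32 in MSC and 4.11 ± 0.46 in tpMSC (adjusted p = 7.28e-06 in ALI against Control). Utp4, of the small-subunit processome, rose by 0.83 (adjusted p = 2.53e-05) and Wdr12, of the complex that matures the large-subunit rRNA, by 0.86 (adjusted p = 4.33e-05). In MSC against ALI 15 of the 60 fell (25%) and 0 rose, beside 5.21% and 5.03% of all genes tested. In tpMSC against ALI 20 fell (33.3%) and 1 rose, beside 11.5% and 11.6%. RNA polymerase I and its factors had 5 of 15 higher (33.3%) and 2 lower (13.3%) in ALI. Of all genes tested 20.2% were higher and 19.6% lower, and of the other genes at 10 FPKM or more 34% and 22.6%. Polr1a, the largest subunit, was up by 0.53 (adjusted p = 0.00421).

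Of 27 initiation factors, 15 rose (55.6%) and 1 fell (3.7%) in ALI. The shares were 20.2% and 19.6% over all genes tested, and 34% and 22.6% over the other genes at 10 FPKM or more. Eif4a1, the helicase of the cap-binding complex, stood at 62.8 ± 3.9 FPKM in Control, 118 ± 3.6 in ALI, 84 ± 5.71 in MSC and 77.4 ± 4.25 in tpMSC (adjusted p = 4.45e-06). Eif2s1, the subunit of eIF2 that stress kinases phosphorylate, rose by 0.79 (adjusted p = 1.17e-05) and Eif1a by 0.92 (adjusted p = 3.65e-05). In the treated groups 4 of the 27 fell in MSC (14.8%) and 8 in tpMSC (29.6%) against ALI, with none higher. Of all genes tested 5.21% and 11.5% fell, and of the other genes at 10 FPKM or more 11.2% and 19.3%. Of 11 elongation and release factors 5 rose (45.5%) and 3 fell (27.3%) in ALI, beside the same 20.2% and 19.6% of all genes tested. The release factor Etf1 rose by 0.83 (adjusted p = 7.84e-06).

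Of 25 other genes listed as having transcripts with a known TOP tract, 10 rose (40%) and 0 fell in ALI. Their median was 0.14 on the log2 scale. The shares were 20.2% and 19.6% over all genes tested, and 34% and 22.6% over the other genes at 10 FPKM or more. The tract was not checked in the sequences of these 25. Gas5 and Snhg1, which host small nucleolar RNAs in their introns, rose by 0.82 and 0.85 (adjusted p = 1.58e-05 and 5.43e-05), and Npm1, a nucleolar chaperone, by 0.47 (adjusted p = 0.000786). In tpMSC against ALI 5 fell (20%) and 2 rose (8%), beside 11.5% and 11.6% of all genes tested and 19.3% and 17% of those other genes. In MSC against ALI 2 fell (8%), beside 5.21% of all genes tested and 11.2% of those other genes. Among 8 ribosomal proteins and paralogues outside the symbol rule, Rpl7l1, Rpl36al and Rack1 rose in ALI by 0.43, 0.45 and 0.31 (adjusted p = 0.000668, 0.00198 and 0.0174) and none fell. The share that rose was 37.5%, beside 20.2% of all genes tested and 34% of the other genes at 10 FPKM or more. Rps3a1 and Fau, which encode canonical ribosomal proteins, stood at 581 and 162 FPKM in Control and 547 and 171 in ALI and were not called in any of these comparisons.

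Of 25 genes of mTORC1 signalling and growth control, 9 rose (36%) and 6 fell (24%) in ALI. The shares were 20.2% and 19.6% over all genes tested, and 34% and 22.6% over the other genes at 10 FPKM or more. Myc, a transcription factor that drives ribosome synthesis, stood at 2.91 ± 0.0577 FPKM in Control and 8.64 ± 0.971 in ALI (log2 fold change 1.63 ± 0.17, adjusted p = 2.03e-05) and was lower in MSC (adjusted p = 0.00814) and tpMSC (adjusted p = 0.00205) than in ALI. Mxd1, an antagonist in the Myc network, rose by 3.39 (adjusted p = 2.97e-07), and Tsc2, an inhibitor of mTORC1, fell by 0.67 (adjusted p = 0.000112). Of 11 genes of the integrated stress response 6 rose (54.5%) and 1 fell (9.09%), and of 13 of ribosome quality control 5 rose (38.5%) and 2 fell (15.4%). Of 9 of p53 and free ribosomal protein sensing 3 rose (33.3%) and 2 fell (22.2%). Each of these lists stands beside the same 20.2% and 19.6% of all genes tested. For the other genes at 10 FPKM or more the shares were 34% and 22.6%. Atf4, the effector of the stress response, rose by 0.595 (adjusted p = 0.000211), the stress granule protein G3bp1 by 0.54 (adjusted p = 0.00047), and the p53 targets Cdkn1a and Mdm2 by 1.54 and 0.59 (adjusted p = 2.89e-05 and 0.000426). Neutrophil and cycling cell markers rose in the same libraries, as given above, and their part in these counts was not tested.

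The mitochondrial ribosomal proteins, which form the separate ribosome of that organelle, gave a comparison class of like size. Of 78 genes 10 rose (12.8%) and 5 fell (6.41%) in ALI, both below the shares over all genes tested (20.2% and 19.6%), with a median of 0.02 beside 0.13 for the cytosolic class. Mrpl52 rose by 0.72 (adjusted p = 0.000916) and Mrpl4 fell by 0.35 (adjusted p = 0.000348). In tpMSC against ALI 2 rose and 2 fell (2.56% each), beside 11.6% and 11.5% of all genes tested. In MSC against ALI 4 fell (5.13%), beside 5.21%. The difference between the classes was not tested.

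**Figure D5:**
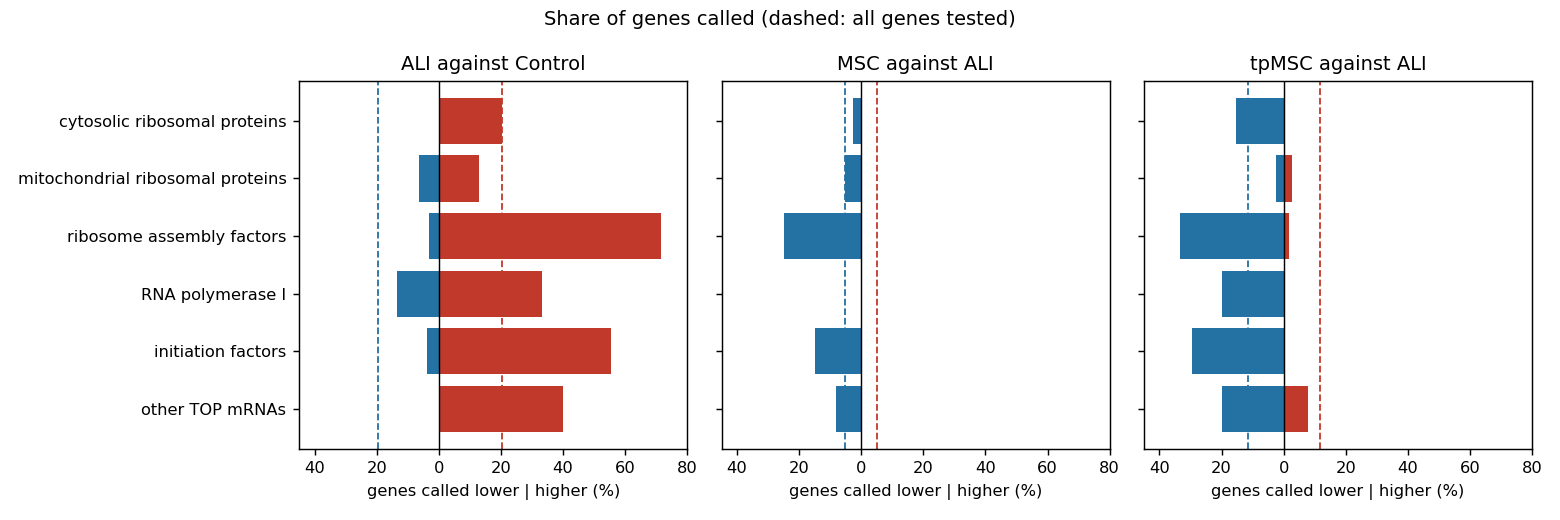
Share of genes (horizontal axis, %) called lower (blue, to the left) and higher (red, to the right) in 6 gene lists and 3 comparisons, with dashed lines at the shares over all 22915 genes tested. In ALI against Control the cytosolic ribosomal proteins reach 20.3% higher, at the dashed line, and 0 lower, while the assembly factors reach 71.7% higher.

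Under the narrow reading of the selection rule, with protein coding as the only listed type, 9 of 10 genes were tested. Rpl29 and Rpl32 were the 2 called higher in ALI, and no call was made in the other 5 comparisons.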

How the data were processed

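Oligo(dT)-selected RNA of mouse lung was read as pairs of 150 bases, per the labels' protocols. The submitters' processing notes list, with no role for any of them, the tools HISAT2 2.0.4, cutadapt 1.9, edgeR, DESeq2 and StringTie 1.3.4d, and the build GRCm38. How reads were assigned to genes, with which strand setting and annotation, is not stated. The authors deposited raw read counts and FPKM for each gene in each library, per the file headers.

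The whole count table, after the filterByExpr filter on low counts and TMM scaling, was fitted over 12 libraries with 1 mean per group by edgeR's quasi-likelihood test (R 4.3.3, edgeR 4.0.16). This kept 22915 genes, and calls required a Benjamini-Hochberg adjusted p under 0.05 over all of these. Levels are the deposited FPKM, summarised as mean ± SD over 3 libraries. Non-overlap of groups was counted over all genes on TMM-scaled CPM. Alternatives were DESeq2 1.42.0, limma 3.58.1 on log2(FPKM + 1) and log2(FPKM + 0.1), other scalings, no filter, a fit of 2 groups, a replicate block and leaving out each library. Adding each member's pseudogene rows (named after it with the ending -ps) and the narrow reading of the rule were chosen after seeing the data. The fit was tested on simulated counts. Libraries of 1 group differed beyond sampling noise.

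Members, gene lists and tests were chosen with earlier results of these data known. Named members are up to 8 rises and 8 falls per comparison among those called, the 3 with the highest FPKM, the stalk proteins, Rpsa, Rps6, and paralogues with their parents. Other lists give up to 3 genes with the smallest p. Further genes named (Rpl17, Rpl7a, Rps27rt, Rps3a1, Fau, Rps18 in ALI and the smaller rises and falls) were added after their values were seen. Positions are from GENCODE M21, matched by gene ID for all 80 members. Sequences around starts are RefSeq's.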

Additional observations from a re-analysis of the deposited data

How the results depend on the processing

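The 16 members higher in ALI were 10 with limma on log2(FPKM + 1) and 10 on log2(FPKM + 0.1), and 8 to 17 when 1 library was left out, with 8 without Control replicate 1, 9 without ALI replicate 1 and 10 without Control replicate 2. Of all genes tested, 18% and 18.2% were called higher on the 2 limma scales and 15.9 to 20.2% with 1 library left out. Rps2, Rps12, Rplp0, Rpsa, Rpl12, Rps26 and Rpl6 kept this call in all 21 alternatives. Members lower in ALI numbered 2 when only the 2 groups were fitted, 2 with the replicate block, and 0 to 2 with 1 library left out. The shares of all genes tested were 22.1%, 19.1% and 15.7 to 19.9%. Members lower in MSC than in ALI numbered 1 without a filter on low counts, 0 with only 2 groups, 1 with limma on log2(FPKM + 0.1), 1 with pseudogene rows added, and 0 to 14 with 1 library left out. In that order, 2.26%, 3.71%, 4.6%, 5.3% and 2.41 to 6.27% of all genes tested were called lower. Members lower in tpMSC than in ALI numbered 6 without the filter and 4 to 14 with 1 library left out, and members higher 0 to 1. Of all genes tested, 5.58% were lower without the filter. With 1 library left out 7.13 to 12% were lower and 7.21 to 12.5% higher. Members higher in MSC than in Control numbered 1 without the filter, 1 with only 2 groups, 1 with the replicate block, 1 with either limma scale and 1 to 2 with 1 library left out. In that order, 5.84%, 9.38%, 9.94%, 9%, 9.71% and 6.28 to 11.4% of all genes tested were called higher. Members lower numbered 1 with DESeq2 and 1 with the replicate block, beside 10.9% and 7.57% of all genes. Members higher in tpMSC than in Control numbered 1 with DESeq2, 3 with only 2 groups, 1 with pseudogene rows added and 0 to 3 with 1 library left out, and members lower 0 to 1. In that order, 12.1%, 11.2%, 8.68% and 4.8 to 10.1% of all genes tested were called higher. With 1 library left out 2.91 to 7.88% were lower. The replicate block gave 15 members higher in ALI and 11 lower in tpMSC than in ALI, beside 19.6% and 11.1% of all genes tested. The labels do not say whether the numbers pair libraries. Deviations of same-numbered libraries correlated at -0.161 to 0.138 over 18 pairs, and 4 of 12 libraries correlated best with one of their own number. These correlations span many genes and could miss a shared effect on few of them, so pairing was not settled. Single members were followed under alternatives only for the calls of the main fit and for Rpl17, Rps18 and Rps27 in ALI. Only those added members could gain a call, so gains and losses cannot be set against each other. Of these values, 553 stayed on the same side of the threshold, 159 lost the call, 22 gained it and 1 changed sign. The change of sign was that of Rpl17 in ALI, at 0.11 with its pseudogene rows added. The causes were not tested, except that a fit without a library, or with 2 groups, has fewer samples. With 3 libraries a group and a median SE of 0.10 on the log2 scale, changes of the size of most members were not resolved.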
